A study of Mus musculus with 8 samples.

Results

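DEAD box and DEAH box proteins are RNA helicases named after a short run of amino acids in the site that binds ATP. They use ATP to separate short RNA duplexes, to move along RNA or to strip proteins from it, and different members act in ribosome assembly in the nucleolus, in splicing, in mRNA export and in translation. In dendritic cells some members also take part in sensing viral RNA. The members described here were all genes of the count table whose name was Ddx or Dhx followed by a number and at most 1 letter, leaving out the RNA sensor genes Ddx58 and Dhx58 and the Y-linked Ddx3y. This gave 50 of 31053 genes, of which 48 were among the 11702 genes that passed the filter on low counts. By role, 16 of the 50 were placed among the nucleolar helicases and 34 among the others, of which 32 passed the filter.

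The cells were conventional dendritic cells (cDCs) of mouse spleen, sorted as lineage-negative cells that carry MHC class II and CD11c. Before the sort, spleen cells enriched to about 20% dendritic cells had been kept for 9 h with 100 nM CpG-B, a synthetic DNA that activates Toll-like receptor 9, so every library of both genotypes came from stimulated cells. There were 4 libraries labelled CKO (D146, D149, D163 and D169) and 4 labelled WT (D142, D150, D154 and D164). The labels give neither strain nor age, and which gene was changed in CKO, and under which promoter, is not given in the sources used here, so the level of that gene was not checked.

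Counts per library ranged from 25304765 to 40950088. The 6 cDC markers were all measured, with a summed level of 17928 to 27237 CPM (each library's counts set to 1 scale by the TMM method) in CKO and 22314 to 28229 CPM in WT. Summed markers of the cDC1 subset were at 2665 to 3769 CPM in CKO and 3287 to 3960 CPM in WT. Those of the cDC2 subset were at 218 to 347 CPM in CKO and 156 to 292 CPM in WT. In both lists 0 genes were called, and CKO D163 was the lowest library for cDC1 and the highest for cDC2. The 8 B cell markers were at low but unequal levels, 29.9 to 127 CPM in CKO and 29.5 to 56.9 CPM in WT, and 1 of the 8 was called higher in CKO. The summed T cell markers were at 41.8 to 79.8 CPM in CKO and 34.0 to 60.3 CPM in WT, with 2 of 7 called higher in CKO. NK cell markers were at 54.7 to 119.7 CPM in CKO and 70.4 to 95.6 CPM in WT, with 0 of 5 called. Summed plasmacytoid DC markers were at 465 to 715 CPM in CKO and 672 to 996 CPM in WT, and macrophage and monocyte markers at 62.0 to 139 CPM in CKO and 126 to 174 CPM in WT, with 1 gene of each list called lower in CKO. Erythroid markers ranged from 6.53 to 87.3 CPM in CKO and from 62.7 to 214 CPM in WT, with 1 gene called lower in CKO. Of the 5 neutrophil markers, Elane, Mpo and Ly6g had 0 counts in every library. The part of the cDC subsets and of these other cells in the results was not tested. For B cells a fit with their markers is given, which cannot tell B cell content and genotype apart. Nothing in the labels says whether each library is its own animal, and p-values then speak only of the spread between these libraries, which may be technical. In such bulk RNA, fewer cells of a type and less RNA per cell cannot be told apart.

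Promoters from RefSeq (GRCm38.p6) were at hand for 45 of the 50 helicases, each from 250 bases before to 50 bases after the gene's start. The 100 bases before RefSeq's start are shown for 4 members. The gene positions printed with the results come from the count table, where Dhx29 begins further upstream, so that its stretch lies inside the gene as given there, and the stretch of Dhx33 takes in the first few bases of the gene as given there. Ddx5 and Dhx29 had the smallest p-values in the comparison, Dhx33 was the only nucleolar helicase with a CACGTG, and Ddx60 carries an interferon-type element. Capitals mark CCAAT on either strand in Ddx5 and Dhx29, CACGTG in Dhx33 and 2 copies of GAAA with 2 bases between them in Ddx60.
Ddx5, chr11:106789186-106789285, minus strand: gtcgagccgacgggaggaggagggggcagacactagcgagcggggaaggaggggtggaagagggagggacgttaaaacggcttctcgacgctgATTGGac
Dhx29, chr13:112927580-112927679, plus strand: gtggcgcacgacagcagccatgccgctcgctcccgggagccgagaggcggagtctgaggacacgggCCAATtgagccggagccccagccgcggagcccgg
Dhx33, chr11:71004433-71004532, minus strand: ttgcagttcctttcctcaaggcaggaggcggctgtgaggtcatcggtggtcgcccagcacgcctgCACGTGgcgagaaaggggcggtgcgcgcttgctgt
Ddx60, chr8:61927987-61928086, plus strand: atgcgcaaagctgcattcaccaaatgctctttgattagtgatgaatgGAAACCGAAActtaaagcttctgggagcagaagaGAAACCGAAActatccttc

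Ddx60 held GAAA, any 2 bases and GAAA again, the core of the interferon-sensitive response element, at 2 places, starting 53 and 19 bases before the gene's start. Searched on both strands of the 300-base windows, this motif was in 1 of 16 nucleolar and 1 of 29 other helicase promoters, against 3.49% of 27025 promoters of all genes. CACGTG, the E-box bound by MYC family proteins among others, was in 1 of 16 nucleolar and 4 of 29 other helicase promoters, against 7.24% of all promoters. CCAAT, on either strand, was in 9 of 16 nucleolar and 14 of 29 other helicase promoters, against 37.92% of all. TATAAA was in 0 of 16 and 1 of 29, the 1 being Ddx60, against 14.16% of all. Of the helicases called higher in CKO, 6 had a promoter in the table: CCAAT was in those of Ddx5 and Dhx29, and CACGTG in that of Dhx33. Neither of the 2 helicases called lower, Ddx19a and Ddx39b, held any of the 4 motifs in this window.

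The helicases spanned a wide range of levels. On the scale of CPM per kb of gene length, Ddx5, a coactivator of transcription and part of the complex that cuts primary microRNAs, was the highest, at 87.8 ± 15.3 in CKO and 53.7 ± 3.12 in WT (mean ± SD, n = 4 each). Ddx39, a close relative of the mRNA export helicase Ddx39b, followed at 42.4 ± 13.3 CPM per kb in CKO and 30.6 ± 2.44 in WT. Ddx24, a nucleolar helicase of the large ribosomal subunit, had 33.05 ± 1.67 CPM per kb in CKO and 29.2 ± 2.72 in WT. Ddx39b had 24.8 ± 5.10 in CKO and 35.2 ± 2.05 in WT, and Ddx42, which associates with the U2 snRNP, had 31.0 ± 1.59 in CKO and 23.9 ± 5.93 in WT. By the spread over libraries, Ddx5 stood above the next gene in each genotype, and Ddx39b was the second highest in WT. The spreads of Ddx39 and Ddx24 overlapped in each genotype, though in CKO the mean of Ddx39 lay above the spread of Ddx24.

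At the low end, 5 helicases were under 1 CPM per kb. The germline helicases Ddx4, Ddx25 and Ddx43 had at most 32 counts in any library, and Ddx25 and Ddx43 were the 2 members that did not pass the filter. Dhx9, a nuclear helicase of broad function, had 54 to 129 counts per library, which is 2.48 to 3.78 CPM in CKO and 1.78 to 3.44 CPM in WT. Ddx23, the spliceosomal helicase that corresponds to yeast Prp28, had 35 to 73 counts per library. Both genes are usually broadly expressed, and how reads were counted, including reads that map to several places, is not given in the sources used here, so these low counts are less certain as levels.

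**Figure D1:**
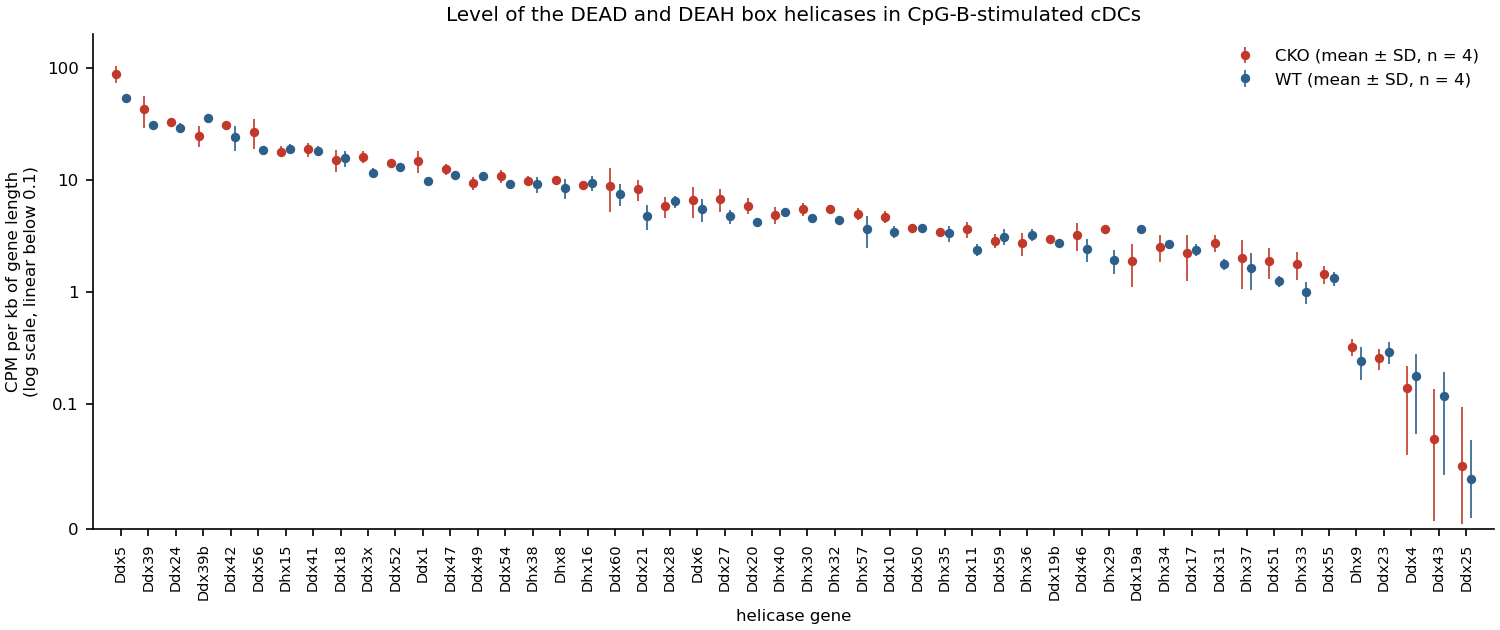
Mean level of each of the 50 helicase genes in CKO (red, left) and WT (blue, right) as CPM per kb of gene length, on a log axis that is linear below 0.1, with bars for the SD over 4 libraries each. Ddx5 leads, and Dhx9, Ddx23, Ddx4, Ddx43 and Ddx25 lie below 1.

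Of the 48 helicases tested, 7 were higher and 2 lower in CKO, and 39 did not pass the test (edgeR's quasi-likelihood test, Benjamini-Hochberg adjusted p under 0.05 over all 11702 genes). Over all genes tested, 8.87% were called, 4.30% higher and 4.57% lower. The 7 higher were Ddx5, Dhx29, Ddx1, Ddx3x, Ddx11, Ddx21 and Dhx33, and the 2 lower were Ddx19a and Ddx39b. The median log2 fold change of the 48, CKO over WT, was 0.23, against 0.03 for all genes tested, and 33 of the 48 were positive, against 53.0% of all genes. Every CKO library lay above every WT library for 8 of the 48, against 7.85% of all genes, and below for 2, against 8.09%.

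The split of directions depended on the scaling. With total-count scaling the median of all genes moved to 0.19, 10 helicases were called higher and 0 lower, and over all genes 1080 were higher and 311 lower, against 503 and 535 with TMM. The calls also depended on single libraries. The number called higher was 0 when CKO D163, WT D150 or WT D154 was left out, 2 when CKO D169 or WT D142 was, 4 when CKO D146 was, 9 when WT D164 was and 13 when CKO D149 was. The number called lower was 2 when CKO D146 was left out, 1 when WT D164 was and 0 when any of the other 6 was. Calls over all genes moved as well, to 21 higher and 49 lower without CKO D163, to 21 higher and 61 lower without WT D150, to 722 higher and 605 lower without CKO D149 and to 921 higher and 547 lower without WT D164. When the fit also held the mean level of the B cell markers, 1 helicase, Ddx5, was called higher and 1, Ddx19a, lower, against 281 higher and 168 lower genes in all.

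**Figure D2:**
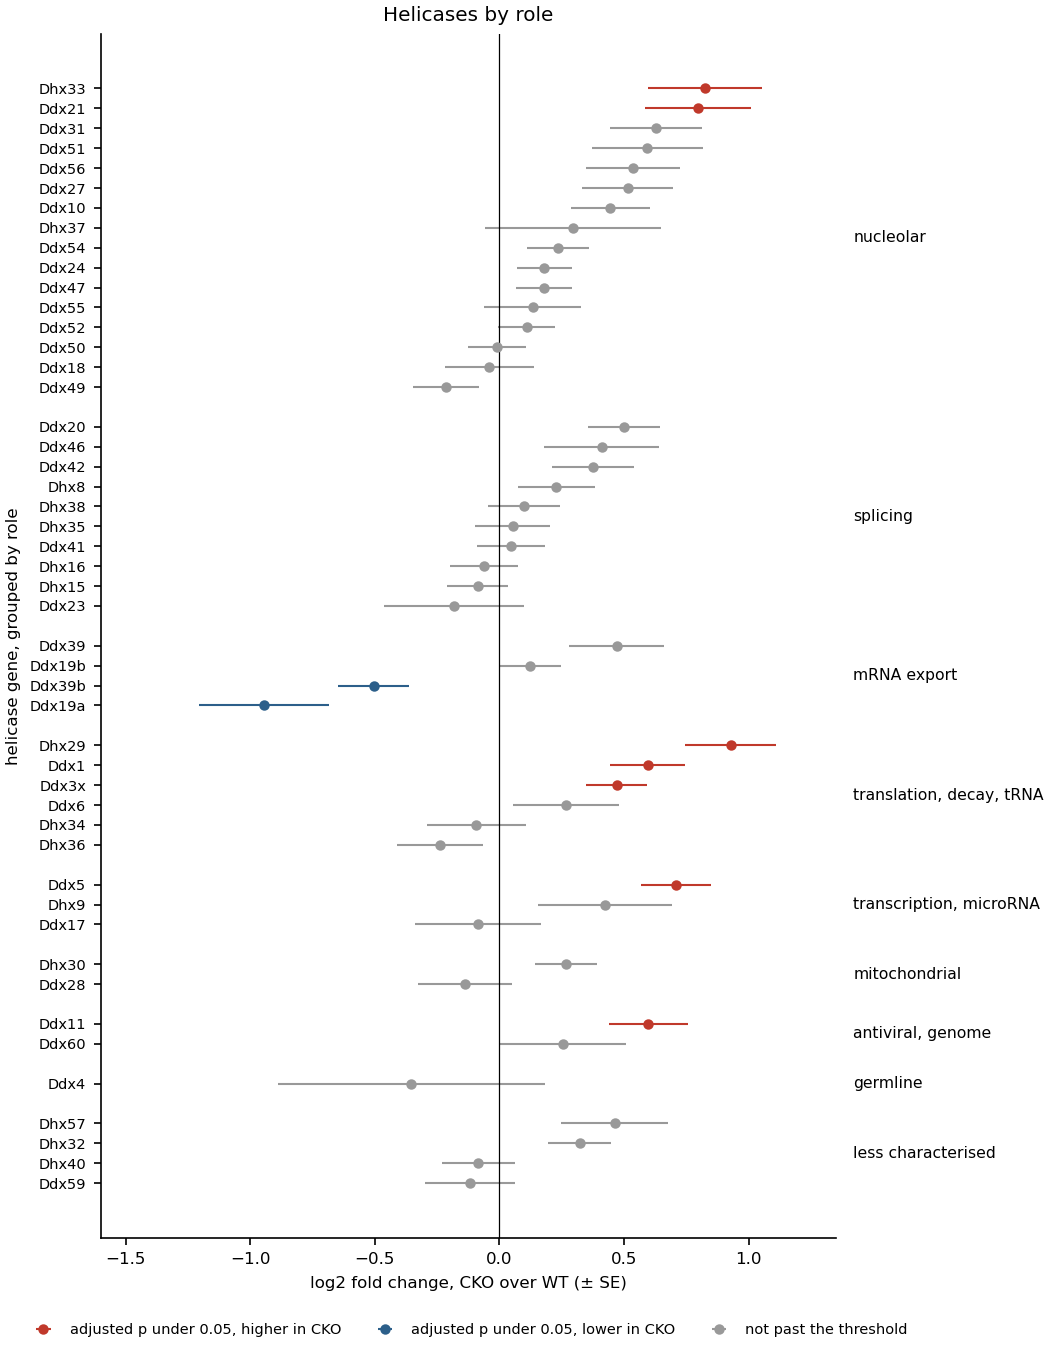
Log2 fold change, CKO over WT, of the 48 helicases tested, with bars for the SE, grouped by role from top to bottom. Red marks the 7 genes called higher, blue the 2 called lower and grey the 39 that did not pass the test.

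The nucleolar helicases unwind precursor ribosomal RNA and its duplexes with small nucleolar RNA during ribosome assembly, and many are known best from their yeast counterparts. Of the 16, 2 were higher in CKO, 0 were lower and 14 did not pass. Their median log2 fold change was 0.26, and 13 of 16 were positive. Of the 32 other helicases, 5 were higher, 2 were lower and 25 did not pass, with a median of 0.18 and 20 positive. As shares, 12.5% of the nucleolar and 15.62% of the other helicases were called higher, against 4.30% of all genes tested. The nucleolar median exceeded the other median by 0.09, a difference that was described and not tested, and by -0.00 to 0.24 over the alternative fits.

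Ddx21 (chromosome 10, 62580251 to 62602281, mm10), which acts in RNA polymerase I transcription and in ribosomal RNA processing, had 41.6, 30.2, 48.5 and 50.5 CPM in CKO D146, D149, D163 and D169, against 15.8, 26.0, 30.7 and 25.8 CPM in WT D142, D150, D154 and D164. The groups overlapped at a single point, since CKO D149 lay just below WT D154. Its log2 fold change was 0.80 ± 0.21 (SE), with an edgeR adjusted p of 0.0417. Its call was lost in 7 of 21 alternative fits, those without CKO D146 (adjusted p = 0.0532), CKO D163, CKO D169, WT D142, WT D150 or WT D154 (0.0684 to 0.121) and that with the B cell markers (0.207). Its neighbour Ddx50 (62615895 to 62651218), a close relative in the nucleolus with a gap of 13613 bases between the genes, had 37.4 ± 3.06 CPM in CKO and 37.6 ± 2.41 CPM in WT (SD, n = 4 each), a log2 fold change of -0.01 ± 0.12 (SE).

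Dhx33 (chromosome 11, 70984091 to 71004437), which promotes transcription of ribosomal DNA, had 23.5, 11.3, 18.9 and 18.1 CPM in CKO D146, D149, D163 and D169, against 8.0, 10.5, 8.96 and 13.1 CPM in WT D142, D150, D154 and D164. CKO D149 lay below WT D164 and the other 3 CKO libraries above every WT library, and the log2 fold change was 0.83 ± 0.23 (SE; edgeR adjusted p = 0.0468). Its call was lost in 8 alternative fits: the same 7 settings as for Ddx21 (adjusted p = 0.0845 to 0.234) and the GC and length correction (0.0645).

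Ddx31, which corresponds to yeast Dbp7 of the large subunit, was just outside the threshold. It had 8.61, 7.90, 11.4 and 10.9 CPM in CKO, against 6.51, 5.31, 6.30 and 6.94 CPM in WT, in the same library order, so that every CKO library lay above every WT library. Its log2 fold change was 0.63 ± 0.18 (SE; edgeR adjusted p = 0.054). Ddx56, Ddx10, Ddx27 and Ddx51 had log2 fold changes of 0.54, 0.45, 0.51 and 0.59, with edgeR adjusted p-values of 0.0914, 0.0934, 0.0949 and 0.11. In each of these 4, 3 CKO libraries lay above every WT library. The most abundant of the 16 by CPM, Ddx24, stood at 272 ± 13.7 CPM in CKO and 241 ± 22.4 CPM in WT, and Ddx55, which corresponds to yeast Spb4, at 7.69 ± 1.38 CPM in CKO and 7.02 ± 1.00 CPM in WT. Ddx49 (-0.21), Ddx18 (-0.04) and Ddx50 (-0.01) had negative log2 fold changes, of which that of Ddx49 was 0.07 with the GC and length correction and those of Ddx18 and Ddx50 were 0.13 and 0.15 with total-count scaling, and none of the 3 passed the test. Exons of Ddx49 share 874 bases with Homer3 on the opposite strand, so its counts are less certain.

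CKO D149 was the lowest CKO library for 12 of the 16 nucleolar helicases and for 29 of all 48. The mean log2 CPM of the 16 was 4.996, 4.58, 5.02 and 4.996 in CKO D146, D149, D163 and D169, and 4.44, 4.58, 4.67 and 4.66 in WT D142, D150, D154 and D164. CKO D149 thus lay among the WT libraries, with the other 3 CKO libraries above all of them. For the 32 others the mean log2 CPM was 4.83, 4.68, 4.83 and 4.76 in CKO, and 4.60, 4.59, 4.65 and 4.70 in WT, in the same order, with CKO D149 again the lowest of CKO. Without CKO D149, 6 of 16 nucleolar helicases were called higher, against 6.09% of all genes tested in that fit, and their median log2 fold change was 0.40, against 0.16 for the other helicases and 0.03 for all genes. Such a rise follows from leaving out the library that was lowest in these same genes, so it is no separate result. Leaving out any other single library gave 0 to 3 nucleolar helicases called higher. CKO D149 was also the lowest CKO library in the summed B cell markers, at 29.9 CPM against 89.9 to 127 CPM in the other 3, and with the mean of these markers in the fit the nucleolar and other medians were both 0.16. As the markers also tended to be higher in CKO, that fit cannot tell B cell content and genotype apart.

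**Figure D3:**
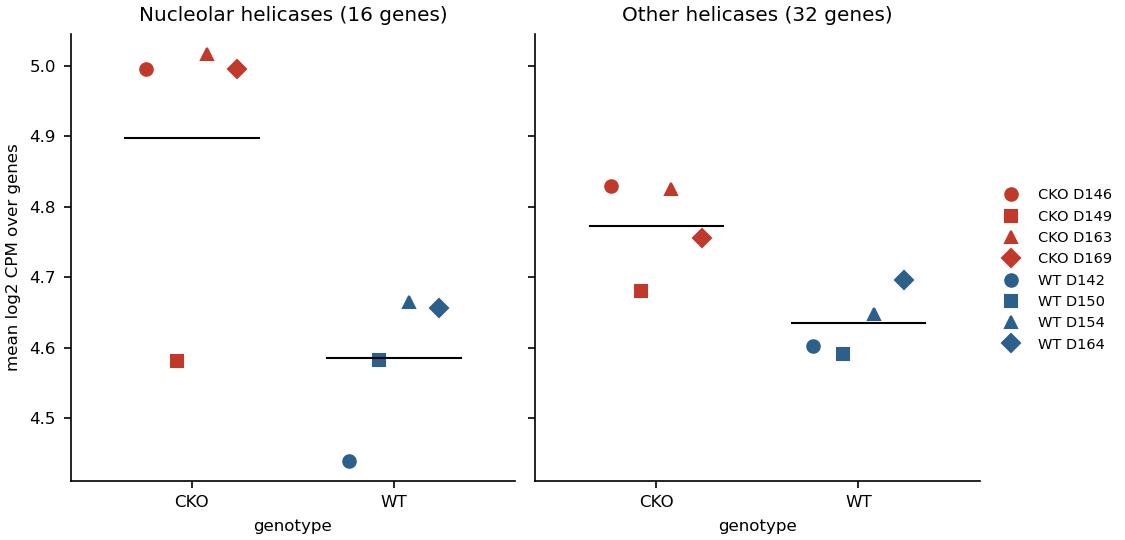
Mean log2 CPM over the 16 nucleolar (left panel) and the 32 other helicases tested (right panel) in each library, with CKO in red left of WT in blue and a line at each group's mean; symbols name the libraries. CKO D149, at 4.58, lies among the WT libraries in the left panel.

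Log2 fold changes over all genes tested followed transcript GC content and gene length (Spearman -0.30 and 0.27 across 11702 genes, which share the same 8 libraries). Over the 48 helicases these were -0.11 and 0.22. The median GC content was 49.7% for the nucleolar helicases, 49.8% for the other helicases tested and 49.3% for all genes tested. Median gene lengths were 5100.5, 5117.5 and 4251.5 bases in the same order, so the helicases were longer than the typical gene. After each library's own trend with GC content and length was removed, 5 of 16 nucleolar helicases were called higher, Ddx21, Ddx27, Ddx31, Ddx54 and Ddx56, against 3.85% of all genes (450 higher and 635 lower), and the group's median was 0.39, against 0.18 for the other helicases and 0.02 for all genes. Dhx33, at 0.59, was no longer called (edgeR adjusted p = 0.0645). Ddx54 shares exon sequence with Cfap73 and Gm43579 on the opposite strand, so its counts are less certain.

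Helicases of translation, decay and tRNA processing held 3 of the 7 increases, among 6 tested, where 4.30% of all genes were called higher. Dhx29 (chromosome 13, 112927454 to 112969432) helps the small ribosomal subunit scan through structured leaders of mRNAs. It had 23.2, 19.5, 23.9 and 21.2 CPM in CKO D146, D149, D163 and D169, against 8.21, 11.2, 11.5 and 15.2 CPM in WT D142, D150, D154 and D164. The groups did not overlap, and the log2 fold change was 0.93 ± 0.18 (SE; edgeR adjusted p = 0.0187), the largest increase among the 48. Its call was lost in 4 of 21 alternative fits, those without CKO D163 (adjusted p = 0.069), WT D150 (0.0706) or WT D154 (0.0634) and that with the B cell markers (0.0517), where the log2 fold change was 0.94.

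Ddx1 (chromosome 12, 13216973 to 13249213) is a subunit of the tRNA ligase complex. It had 58.7, 63.7, 88.0 and 89.6 CPM in CKO, against 51.0, 47.8, 47.1 and 52.8 CPM in WT, in the same library order. CKO D163 and D169 were the highest, and no CKO library fell within the WT range, and the log2 fold change was 0.59 ± 0.15 (SE; edgeR adjusted p = 0.0362).

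Ddx3x (chromosome X, 13280970 to 13294052) supports translation of mRNAs with structured leaders and has a part in innate immune signalling. It had 83.2, 78.6, 100.4 and 76.5 CPM in CKO, against 59.9, 56.7, 58.7 and 69.3 CPM in WT, without overlap and with a log2 fold change of 0.47 ± 0.12 (SE; edgeR adjusted p = 0.0398). Ddx3x shares 0.043% of the 50-base stretches of its longest transcript with the Y-linked Ddx3y. The sex of the mice was not compared between the groups, so its part in the level of this X-linked gene was not tested.

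Both Ddx1 and Ddx3x lost the call without CKO D163, CKO D169, WT D142, WT D150 or WT D154 (adjusted p up to 0.118 for Ddx1 and 0.128 for Ddx3x), with the B cell markers in the fit (0.147 and 0.128) and after the correction for GC content and length, at 0.47 (edgeR adjusted p = 0.0604) and 0.32 (0.0894). Of the other 3 genes of this group, Ddx6, which represses translation and promotes decapping, had 53.2 ± 16.2 CPM in CKO and 44.3 ± 10.5 CPM in WT, with CKO D149 the highest library at 77.0 CPM. Dhx36, which unwinds G-quadruplexes, had 27.8 ± 6.43 CPM in CKO and 32.9 ± 4.04 CPM in WT and was called lower after the GC and length correction (log2 fold change -0.56, edgeR adjusted p = 0.0408). Dhx34, a factor of nonsense-mediated decay, had a log2 fold change of -0.09 ± 0.20 (SE).

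Of 3 helicases of transcription and microRNA processing, 1 was higher in CKO and 2 did not pass, where 4.30% of all genes were called higher. Ddx5 (chromosome 11, 106780355 to 106789185) had 382, 508, 581 and 556 CPM in CKO D146, D149, D163 and D169, against 302, 331, 290.2 and 317 CPM in WT D142, D150, D154 and D164. The groups did not overlap, with CKO D146 nearest to WT. The log2 fold change was 0.71 ± 0.14 (SE; edgeR adjusted p = 0.0187). It was past the threshold in 18 of 21 alternative fits, and lost the call without CKO D163 (adjusted p = 0.069), WT D150 (0.063) or WT D154 (0.0653). Its relative Ddx17, which acts beside it in microRNA processing, had 10.6, 27.8, 14.7 and 15.3 CPM in CKO, against 20.8, 15.4, 18.0 and 18.4 CPM in WT. For Ddx17, CKO D149 was the highest library and the other 3 CKO libraries lay below every WT library, with a log2 fold change of -0.09 ± 0.25 (SE; edgeR adjusted p = 0.856). Dhx9 had a log2 fold change of 0.42 ± 0.27 (SE) and did not pass.

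Of 4 mRNA export helicases, 2 were lower in CKO and 2 did not pass the test, where 4.57% of all genes were called lower. Ddx39b (chromosome 17, 35241746 to 35253707), a core helicase of the complex that couples splicing to export, had 121, 79.0, 94.3 and 81.3 CPM in CKO D146, D149, D163 and D169, against 144, 131, 133 and 125 CPM in WT D142, D150, D154 and D164. All CKO libraries lay below all WT libraries, and CKO D146 was the nearest to WT. The log2 fold change was -0.51 ± 0.14 (SE; edgeR adjusted p = 0.0492), the call nearest to the threshold, and it was lost in 10 of 21 alternative fits (highest adjusted p = 0.169), those with total-count scaling, no low-count filter (0.0516), the B cell markers (0.0606, with a log2 fold change of -0.64) or the GC and length correction (0.0534) and those without CKO D149, CKO D163, CKO D169, WT D142, WT D150 or WT D154 (0.0782 to 0.128). The related Ddx39 had 181, 151, 235 and 308 CPM in CKO, against 168.6, 148.9, 168.97 and 145 CPM in WT, a log2 fold change of 0.47 ± 0.19 (SE) that did not pass (edgeR adjusted p = 0.134). Its exons share 895 bases with Adgre5 on the opposite strand, so its counts are less certain.

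Ddx19a and Ddx19b are neighbours on chromosome 8, 110974996 to 110997800 and 111003188 to 111031751, and both act at the nuclear pore, where they release mRNA from export factors. Ddx19a had 8.74, 3.21, 5.30 and 5.04 CPM in CKO D146, D149, D163 and D169, against 11.9, 11.1, 9.69 and 10.4 CPM in WT D142, D150, D154 and D164. The groups did not overlap, and the log2 fold change was -0.94 ± 0.26 (SE; edgeR adjusted p = 0.046), the largest decrease among the 48. Ddx19b had 20.1 ± 1.52 CPM in CKO and 18.4 ± 0.844 CPM in WT (SD, n = 4 each), a log2 fold change of 0.12 ± 0.13 (SE). The assignment of reads between them is uncertain, because 33.3% of the 50-base stretches of the longest Ddx19a transcript also occur in Ddx19b. With the counts of both genes summed, a setting chosen after seeing the data, the level was 25.6 ± 3.61 CPM in CKO and 29.2 ± 1.10 CPM in WT, with a log2 fold change of -0.19 ± 0.13 (SE) that did not pass (edgeR adjusted p = 0.378). The call of Ddx19a was also lost without WT D164 (adjusted p = 0.0542), WT D142, WT D150, WT D154, CKO D149, CKO D163 or CKO D169, (0.0516 to 0.128), and with total-count scaling (0.09).

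**Figure D4:**
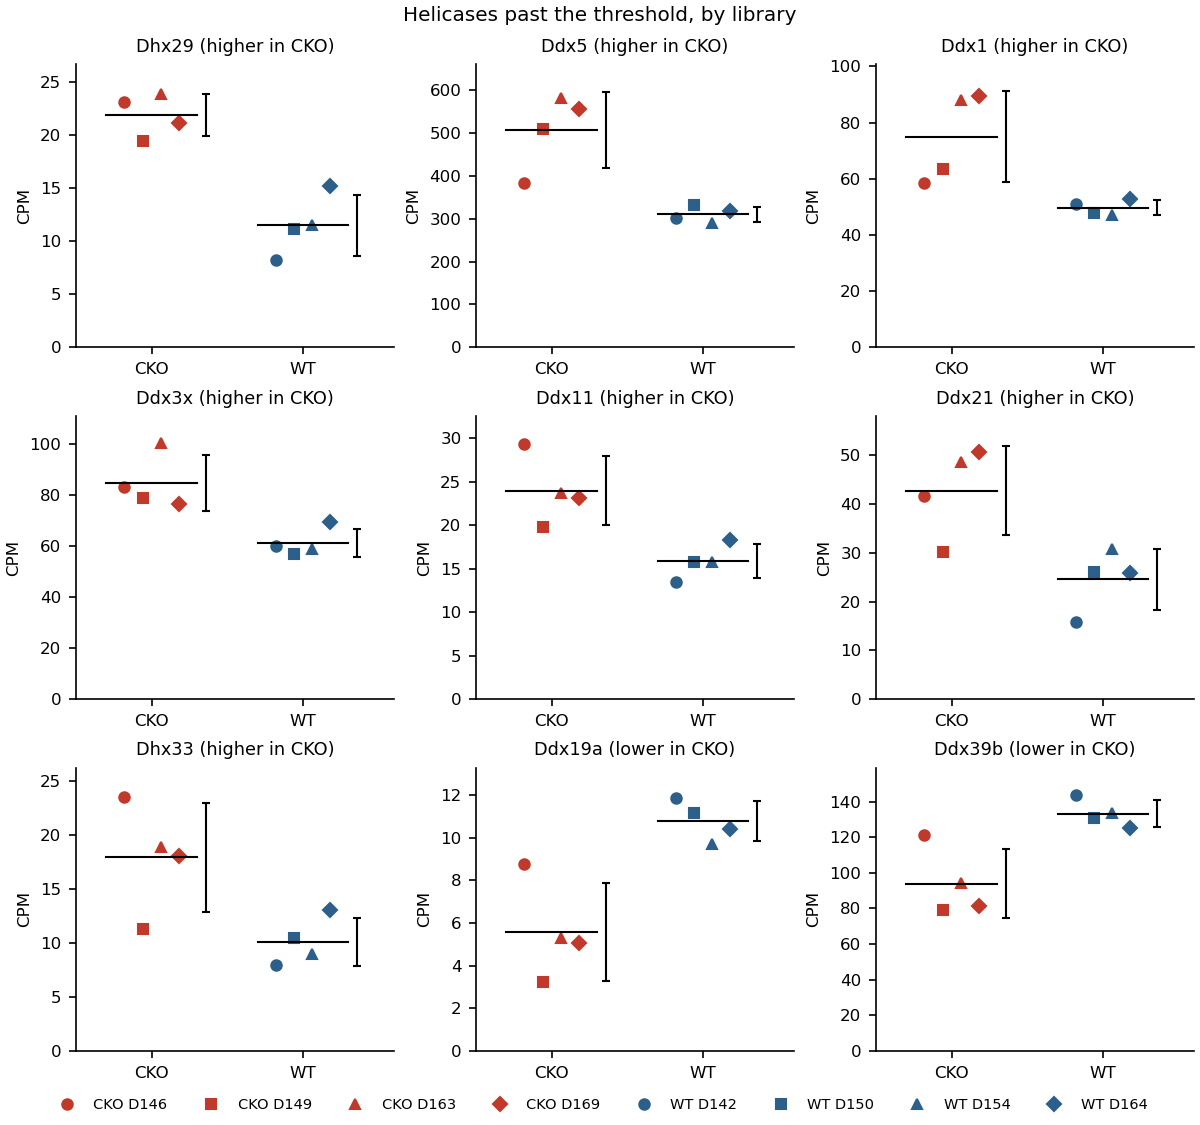
CPM of the 9 helicases past the threshold in each library, with CKO in red left of WT in blue, a line at each group's mean and a bar for its SD (n = 4 each). The groups overlap only for Ddx21 and Dhx33, where CKO D149 falls within the WT range.

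Of 10 splicing helicases, which remodel the spliceosome at its successive steps or build its particles, none was called higher or lower. Their median log2 fold change was 0.08. At an unadjusted p under 0.05 in edgeR, 2 were higher and 0 lower, against 15.4% and 13.2% of all genes. DESeq2 called 1 higher, Ddx20, where it called 8.28% of all genes higher. Ddx20, also known as Gemin3 and part of the SMN complex that assembles spliceosomal particles, had 23.4, 20.2, 24.4 and 29.9 CPM in CKO, against 17.7, 18.3, 16.8 and 16.5 CPM in WT, in the same library order. Its groups did not overlap, and its log2 fold change was 0.50 ± 0.14 (SE; edgeR adjusted p = 0.0527), just outside the threshold. Ddx42 had 131 ± 6.74 CPM in CKO and 101 ± 25.1 CPM in WT, with WT D164 at 131 CPM within the CKO range (log2 fold change 0.37 ± 0.16, SE). Ddx46, which corresponds to yeast Prp5, had 23.4 ± 6.58 CPM in CKO and 17.6 ± 4.19 CPM in WT. The log2 fold changes of the other 7 lay between -0.18 for Ddx23 and 0.23 for Dhx8.

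Ddx11 (chromosome 17, 66123520 to 66152174), an iron-sulfur DNA helicase of sister chromatid cohesion that carries the family's name, had 29.4, 19.8, 23.7 and 23.1 CPM in CKO D146, D149, D163 and D169, against 13.5, 15.8, 15.8 and 18.3 CPM in WT D142, D150, D154 and D164. The groups did not overlap, with CKO D149 nearest to WT. The log2 fold change was 0.60 ± 0.16 (SE; edgeR adjusted p = 0.04), and its call was lost without CKO D146, CKO D163, CKO D169, WT D142, WT D150 or WT D154 (adjusted p = 0.0674 to 0.112) and with the B cell markers (0.142).

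Ddx60, an interferon-induced antiviral helicase, whose promoter is printed above, had 58.1, 126, 59.7 and 65.4 CPM in CKO, against 70.3, 43.4, 70.6 and 74.6 CPM in WT, in the same library order. CKO D149 was well above all other libraries and WT D150 below them. The log2 fold change was 0.26 ± 0.25 (SE; edgeR adjusted p = 0.539), and it was -0.08 without CKO D149.

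The 2 mitochondrial helicases, both of which act in assembly of the mitochondrial ribosome, did not pass. Dhx30 had 58.2 ± 7.33 CPM in CKO and 48.3 ± 3.94 CPM in WT, and Ddx28 had 13.2 ± 2.87 and 14.5 ± 1.78 CPM. Of the 4 helicases of less certain role, Dhx32 had 21.3, 20.8, 23.4 and 25.8 CPM in CKO, against 19.2, 18.1, 17.9 and 17.8 CPM in WT, with no overlap, and its log2 fold change of 0.32 ± 0.13 (SE) did not pass (edgeR adjusted p = 0.126). Exons of Dhx32 overlap those of Bccip on the opposite strand. Dhx57 had a log2 fold change of 0.46 ± 0.21 (SE), Dhx40 of -0.08 ± 0.15 and Ddx59 of -0.12 ± 0.18. The germline helicase Ddx4, with 0.421 ± 0.242 CPM in CKO and 0.534 ± 0.305 CPM in WT, did not pass either.

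**Figure D5:**
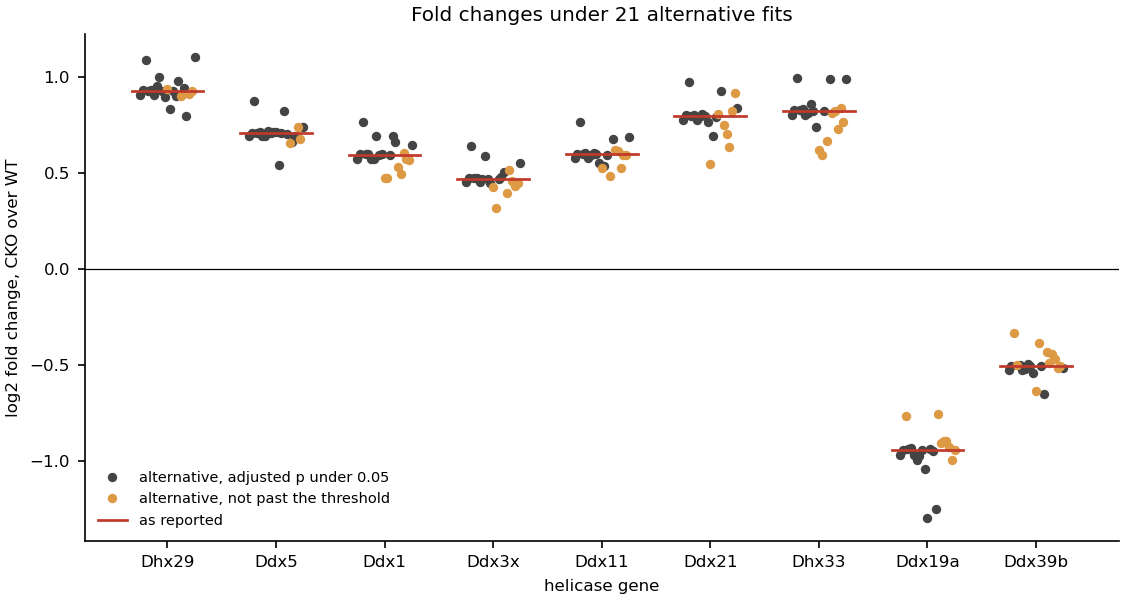
Log2 fold change, CKO over WT, of the 9 helicases past the threshold under 21 alternative fits, in grey where the adjusted p was under 0.05 and in orange where it was not; a red line marks the value reported in the text. No fold change crosses 0, while each gene loses its call in 3 to 10 fits.

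Helicases of the same or a related superfamily with other names gave 2 increases among 10 tested, and none lower (0 lower also at an unadjusted p under 0.05 in edgeR). Over all genes tested, 4.30% were called higher and 4.57% lower, and 13.2% were lower at an unadjusted p under 0.05. Ascc3, which splits stalled ribosomes and unwinds DNA for repair, had 73.9 ± 11.98 CPM in CKO and 41.8 ± 13.4 CPM in WT (log2 fold change 0.82 ± 0.20, SE). Aqr, a helicase of the spliceosome, had 46.6 ± 5.96 CPM in CKO and 27.9 ± 7.71 CPM in WT. Each lost its call in 7 of 21 alternative fits: both without CKO D163, CKO D169, WT D142, WT D150 or WT D154, Ascc3 also without CKO D149 and with the GC and length correction, and Aqr also without CKO D146 and with the B cell markers. The highest adjusted p was 0.108 for Ascc3 and 0.110 for Aqr, and with the GC and length correction the log2 fold change of Ascc3 was 0.44. Eif4a1, the DEAD box helicase of cap-dependent initiation, had 836 ± 187 CPM in CKO and 562 ± 63.7 CPM in WT, just outside the threshold (edgeR adjusted p = 0.0529). Skiv2l2, the helicase of the nuclear exosome, had 69.6 ± 4.73 CPM in CKO and 51.7 ± 6.74 CPM in WT and was likewise outside (0.0519). Of the 10, 3 had negative log2 fold changes, among them Skiv2l (-0.43 ± 0.22, SE) and Eif4a2 (-0.20 ± 0.10). Neither passed (edgeR adjusted p = 0.216 and 0.219). For Eif4a2 every CKO library lay below every WT library, which held for 1 of the 10, against 8.09% of all genes.

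Among 43 tested cofactors and partners of the helicases, 4 were higher (9.3%, against 4.30% of all genes), 1 was lower (against 4.57% of all genes) and 38 did not pass. Their median log2 fold change was 0.23, against 0.03 for all genes. Nop58, a core protein of box C/D small nucleolar RNPs, had 38.3 ± 8.61 CPM in CKO and 16.3 ± 3.55 CPM in WT, and its call held in all 21 alternative fits (highest adjusted p = 0.0495). Cnot1, the scaffold of the deadenylase complex that binds Ddx6, had 68.5 ± 7.17 CPM in CKO and 33.3 ± 13.3 CPM in WT. Thoc2, of the export complex that works with Ddx39b, had 43.6 ± 8.45 CPM in CKO and 22.5 ± 6.43 CPM in WT. The remaining increase, Gpkow, had 82.9 ± 3.01 CPM in CKO and 60.7 ± 9.28 CPM in WT. Its log2 fold change was 0.45 ± 0.13 (SE) and its call the nearest to the threshold in this list (edgeR adjusted p = 0.0496). Alternative fits of Gpkow are not given here. The single decrease was in Patl1, a decapping factor that binds Ddx6, with 16.5 ± 3.23 CPM in CKO and 26.0 ± 4.87 CPM in WT (log2 fold change -0.66 ± 0.18, SE; edgeR adjusted p = 0.044). Cnot1, Thoc2 and Patl1 all lost their calls without CKO D163, WT D150 or WT D154 and with the B cell markers. Cnot1 also lost it without WT D142, Thoc2 with the GC and length correction (log2 fold change 0.58), and Patl1 with total-count scaling and without CKO D149, CKO D169, WT D142 or WT D164. Their highest adjusted p-values were 0.0849, 0.0847 and 0.144.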

How the data were processed

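RNA-seq libraries of 4 CKO and 4 WT samples were compared. Per the labels' protocols, polyadenylated RNA was amplified with a SMART-Seq low-input kit. Tools named by the submitters' processing notes are HISAT2 2.2.1 and fastp 0.23.2, with the mm10 genome. How reads were counted, on which annotation and with which strand setting is not given in the sources used here. Values in the deposited file are whole-number counts for each gene, not normalized by the authors.

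Groups came from the genotype labels. No 2 libraries were copies (smallest chi-square per degree of freedom 46.4). edgeR 4.0.16 in R 4.3.3 was fitted to all genes passing filterByExpr: TMM normalization, robust quasi-likelihood F test, Benjamini-Hochberg adjustment, threshold 0.05. The test was also run on counts simulated with the levels and dispersions of these libraries. Changes were set in 66, 67 and 67 of 11702 genes, at absolute log2 fold changes of 0.6, 1 and 2. The test called 9.09% of these at 0.6, 58.2% at 1 and 89.6% at 2, with 4 false calls among the unchanged genes. A helicase that did not pass may therefore still differ by such amounts. The share of genes changed was smaller than the 8.87% called in the data, so these rates may differ from those in the data. The SE is the log2 fold change divided by the square root of F. Library totals of 25304765 to 40950088 counts limit abundant genes little; the spread between libraries sets the precision. GENCODE M21 gave exon overlaps and transcript GC content (50 of 50 members matched). Besides the overlaps noted above, exons of Dhx30, Ddx41, Dhx57, Ddx17, Ddx28, Ddx59 and Ddx43 share bases with genes on the opposite strand. Exons of Ddx5, Ddx39b and Dhx30 share bases with non-coding genes on the same strand that are not in the count table. The GC and length correction used natural splines with 5 degrees of freedom. Alternatives also used DESeq2 1.42.0, limma 3.58.1 and sva 3.50.0.

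The members, role lists and tests were chosen with earlier results of these data known. Named were all members past the threshold, the 3 smallest p-values of each role, the 5 highest levels per kb and up to 4 genes of each other list by p-value. Further members and further genes of the other lists were named after their values were seen. No protein sequences were used here.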

Additional observations from a re-analysis of the deposited data

Results flagged for a closer look

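Among the 24 helicases named by rule, 48 groups of 4 libraries were examined for a library that stood apart from the other 3, and 4 were found; chance flags about 1 in 20 such groups. Ddx60 in CKO D149 was at 126 CPM (125.8), against 58.1 to 65.4 CPM in the other CKO libraries. Ddx60 in WT D150 was at 43.4 CPM (43.43), against 70.3 to 74.6 CPM in the other WT libraries. Ddx28 in CKO D149 was at 8.92 CPM (8.917), against 14.0 to 15.02 CPM in the other CKO libraries. Ddx59 in WT D142 was at 11.4 CPM, against 8.19 to 8.64 CPM in the other WT libraries.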

How the results depend on the processing

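Under 21 alternative fits the 9 called helicases all kept their direction, and the calls of single genes did not all hold. The number of helicases higher, 7 as reported, was 16 with limma-voom quality weights, where 1870 of 11702 genes were called higher, and 1 with the B cell covariate, where 281 were, and 0 to 13 on leaving out 1 library. The number lower, 2 as reported, was 0 with total-count scaling, 1 without the low-count filter, 1 with the B cell covariate, and 0 to 2 on leaving out 1 library. Nucleolar helicases higher, 2 as reported, were 4 with total-count scaling, 4 with DESeq2, 7 with quality weights, 0 with the B cell covariate, 5 with the GC and length correction, and 0 to 6 on leaving out 1 library. The share of all genes called higher moved too. It was 4.3% as reported, 9.23% with total-count scaling, 8.28% with DESeq2 and 16% with quality weights. With the B cell covariate it was 2.4%, with the GC and length correction 3.85%, and on leaving out 1 library 0.177% to 7.75%. Other helicases higher, 5 as reported, were 9 with quality weights, 1 with the B cell covariate, 3 with the GC and length correction, and 0 to 7 on leaving out 1 library. The median log2 fold change of the nucleolar helicases ran from 0.16 with the B cell covariate to 0.43 with total-count scaling, and that of the other helicases was 0.34 with total-count scaling, where the median of all genes was 0.19; on leaving out 1 library the medians ran from 0.20 to 0.40 and from 0.13 to 0.21. Of the 39 helicases that did not pass, 20 took the other sign in at least 1 alternative fit, 9 of them with total-count scaling, 8 with the GC and length correction and 5 with the B cell covariate. Among those named by rule, the log2 fold change took the other sign with total-count scaling for Ddx17 (0.0532), Ddx28 (0.0454) and Ddx59 (0.0536), with the B cell covariate for Ddx17 (0.17), and with the GC and length correction for Ddx24 (-0.10), Ddx28 (0.0727) and Ddx60 (-0.0461). On leaving out 1 library it ran from -0.4246 to 0.0877 for Ddx17, -0.2056 to 0.0077 for Ddx28, -0.7784 to 0.0933 for Ddx4 and -0.0845 to 0.3798 for Ddx60, with the other sign without CKO D146 or CKO D163 for Ddx17, CKO D149 for Ddx28 and Ddx60, and WT D154 for Ddx4. The cause was not tested. Of the 5 highest levels per kb, 4 were also among the 5 highest by CPM. No paired analysis was possible because no number is shared between the groups' libraries. Low counts limit Dhx9, Ddx23, Ddx4, Ddx25 and Ddx43.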
